A study of Drosophila melanogaster with 34 samples.

Results

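The 87 nuclear genes examined here carry the names of oxidative phosphorylation subunits in *Drosophila melanogaster*. Members were the rows of the nuclear RNA-seq count table whose current gene name starts with *ND-*, *COX* and a digit, *UQCR-*, *ATPsyn*, or *SdhA* to *SdhD*, and they made up 87 of 17559 rows. The count table itself uses older names for most of them, such as *CG9350* for *ND-B14.7*, and only 8 rows match by the name printed there, so current names were looked up by gene identifier. By name, 40 members belong to complex I, 7 to complex II, 9 to complex III, 16 to complex IV and 15 to complex V. Apart from *ND-MNLL*, which was kept among the other members, names of 24 members end in L or in L and a digit. This marks a duplicate of another subunit gene, and these 24 are called paralogs below. In *Drosophila*, many such duplicates are known for expression in the testis.

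The study isolated nuclei of the mushroom body (MB), the brain centre for olfactory memory in flies, and measured 34 samples. Nuclear RNA was sequenced in 15 libraries, 3 in each of 5 groups: naïve flies, a light group collected at the end of 5 min under red light, and 3 rest groups collected 5, 10 or 15 min later. All groups were of the line labelled CS10, w(CS10) in the study's methods, and carried CsChrimson, a red light-gated cation channel that depolarizes the neurons, and FLAG-KASH, a tag on the outer nuclear membrane by which nuclei were pulled down from crosslinked head homogenates. The MBp-LexA driver expressed both, under an enhancer of *Mef2* that is active in MB neurons. Ages of the flies, whether the flies for RNA carried the CoRest-C transgene, and whether naïve flies were fed retinal, which the channel needs, are not stated in the sources used here. A further 18 ChIP-seq samples covered CBP, Rpd3 and CoRest-C in naïve and illuminated flies, CoRest-C as a myc-tagged transgene expressed by the MBsw driver, with 1 sample of input DNA, and 1 list of binding sites per protein, made from illuminated flies, is used here. Nothing in the labels says that replicates came from separate fly cultures, so p-values measure the spread between these libraries, which may be technical.

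Oxidative phosphorylation passes electrons from NADH (complex I) and succinate (complex II) through complex III to oxygen at complex IV, and the proton gradient made on the way drives ATP synthase (complex V). Most subunits are encoded in the nucleus and imported, while a few core subunits are encoded in the mitochondrial genome. In neurons this pathway supplies most of the ATP that is spent on ion pumping and synaptic transmission.

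Libraries held between 10392334 and 18809246 counts, and the members took between 1.01% and 1.68% of them. Levels are given as normalized CPM, the share of counts on a gene scaled to a fixed library total, with library sizes adjusted by edgeR's TMM factors. These are shares of the RNA in a library, and in such bulk material fewer nuclei of a type and less RNA per nucleus cannot be told apart. All 11 markers of MB neurons were detected in each group. Their summed levels were 3000 to 3200 normalized CPM at 10 min of rest and 3040 to 3294 in naïve flies. Single markers went in both directions, with 1 called lower and 2 higher at 10 min of rest than in naïve flies (13.9% and 14.5% of tested genes). Without naïve replicate 2, 3 were called lower (10.7% of tested genes) and 2 higher. Then 8 of the 11 had a log2 fold change below 0, with a median of −0.18. Photoreceptor, fat body and muscle markers were present as well, at 26732 to 27648, 15576 to 16137 and 1895 to 2076 normalized CPM at 10 min of rest, against 27501 to 32071, 15021 to 15099 and 1329 to 1748 in naïve flies. Without naïve replicate 2, 4 of 9 photoreceptor markers were called lower and 0 higher at 10 min of rest (median log2 fold change −0.16). Of 7 tested fat body markers, 3 were then called lower and 1 higher, and of 15 muscle markers 1 lower and 5 higher. Markers of the male reproductive tract also differed between groups. Without *EbpIII*, which was high throughout (4359 to 8964 normalized CPM), the other 6 summed to 185 to 208 normalized CPM in naïve flies, 64.1 to 83.8 in the light group, 0.452 to 0.891 after 5 min, 0.336 to 0.747 after 10 min and 31.2 to 46.4 after 15 min of rest. *Ebp*, an ejaculatory bulb protein, was among them. At 10 min of rest 5 of the 6 tested markers of this list were called lower than in naïve flies and *EbpIII* was called higher, with and without naïve replicate 2. The part of these marker differences in the results below was not tested. The 15 rows of mitochondrial genome genes are listed at 0 in every library, so only nuclear genes of the pathway could be measured.

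Naïve replicate 2 stood apart from the other naïve libraries. The members summed to 16152 normalized CPM in this library, against 12365 in naïve replicate 1 and 12402 in naïve replicate 3. Of the 62 tested members that are not paralogs, 60 were above their own mean over all libraries in naïve replicate 2, 31 in naïve replicate 1 and 37 in naïve replicate 3. Counts of members against naïve flies are therefore given with and without this library. A comparison of 10 min of rest with the libraries taken right after the light was added after these values were seen. Its fold changes compare no naïve library, but its p-values come from the fit over all 5 groups, naïve libraries included.

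Of the 87 members, 72 passed the filter on low counts, 35 of them in complex I, 5 in complex II, 7 in complex III, 13 in complex IV and 12 in complex V. The 15 that did not pass were *ND-MNLL* and 14 paralogs (*ATPsynGL*, *ND-51L2*, *ATPsynCF6L*, *SdhAL*, *ATPsynbetaL*, *ND-24L*, *COX6AL2*, *ND-B14.5AL*, *COX7AL*, *SdhCL*, *UQCR-14L*, *ND-20L*, *UQCR-11L* and *COX6CL*), none of which had more than 18 counts in a library. The exons of *ND-MNLL*, which had 0 counts throughout, lie entirely within *CG45089* on the same strand, and a read on both genes may not have been counted for either. The 10 tested paralogs were low, with at most 126 counts in a library.

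Per length of all exons, the highest level in naïve flies was that of *ATPsynC*, the subunit of the rotating ring of ATP synthase, with 908 normalized CPM per kb, followed by *ATPsynF* (478), *COX6B* (466), *ATPsynB* (460) and *COX5A* (454). Reads lay mainly towards 3′ ends, so dividing by exon length favours short genes, and this order holds on that scale alone. Over the 62 tested members that are not paralogs, the median was 168 normalized CPM per kb. Neighbours in this order were not tested against each other, and *ATPsynF* to *COX5A* lay close together.

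Across the groups, the level of the pathway was lowest at 10 min of rest. The members summed to 13640 ± 2176 normalized CPM in naïve flies, 13227 ± 376 in the light group, 12024 ± 1031 after 5 min of rest, 10723 ± 325 after 10 min and 12337 ± 745 after 15 min (SD, n = 3 each). The 3 libraries at 10 min of rest, at 10512, 10561 and 11097, lay below all other libraries, of which the lowest was at 11359. Among the 62 tested members that are not paralogs, 59 had their lowest group mean at 10 min of rest and none had its highest there, whereas 29.3% of all tested genes had their lowest mean in this group. Without naïve replicate 2, 58 had their lowest mean at 10 min of rest. The highest mean was in naïve flies for 45 of these members with all libraries, and right after the light for 43 of them without naïve replicate 2.

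**Figure D1:**
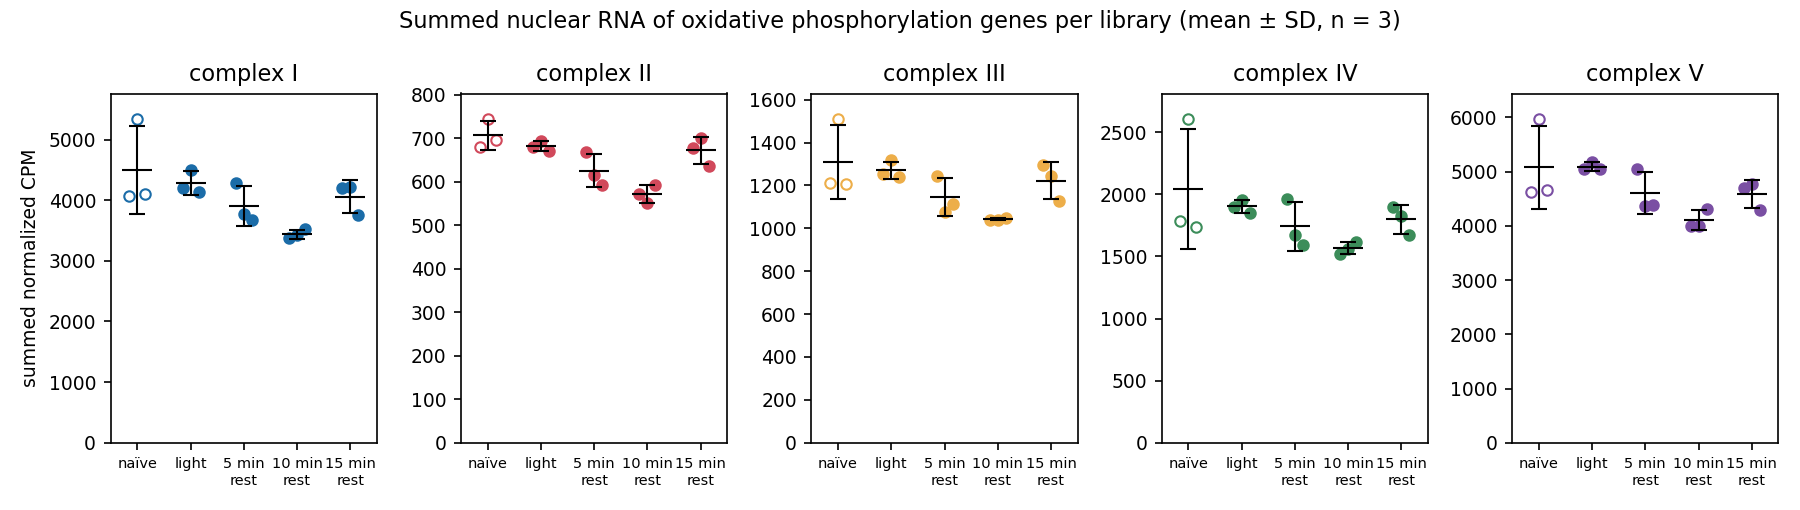
Summed normalized CPM of the members of each complex (vertical axis, from 0) in the 15 nuclear RNA-seq libraries by group (horizontal axis). Points are libraries, open for naïve flies, and bars give the mean and SD of 3 libraries; the 10 min of rest group has the lowest mean in each complex, and naïve replicate 2 is the high open point in each panel.

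Right after the light, no member was called against naïve flies by edgeR's quasi-likelihood test at a Benjamini-Hochberg adjusted p under 0.05, while 3.45% of the 11670 tested genes were called lower and 4.88% higher. The unadjusted p was under 0.05 for 3 members and for 2565 of the 11670 tested genes, and DESeq2 called 0 members as well. The median log2 fold change of the 72 members was −0.07, against −0.01 over all tested genes, and it was 0.07 without naïve replicate 2, so its direction turned with that library, and 1 member, *ND-MLRQ* of complex I, was then called higher (log2 fold change 0.35, adjusted p = 0.017). The 3 smallest p-values belonged to *COX6AL*, a paralog with at most 14 counts in a library, and to *ND-24* and *ND-B14*, both subunits of complex I. *ND-24* had 101, 98.4 and 92.7 normalized CPM right after the light, against 101, 147 and 103 in naïve flies (log2 fold change −0.26, standard error 0.12, edgeR adjusted p = 0.20). Its libraries overlapped between the groups, and only naïve replicate 2 was high.

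After 5 min of rest, 3 members were called lower than in naïve flies and none higher, where 6.02% of tested genes were called lower and 8.75% higher. These 3 encode subunits of complex I. *ND-PDSW* had 117, 94.7 and 102 normalized CPM after 5 min of rest, against 115, 209 and 132 in naïve flies (log2 fold change −0.54, standard error 0.14, edgeR adjusted p = 0.010). *ND-23*, which carries iron-sulfur clusters of the electron path, had a log2 fold change of −0.41 and *ND-B14.7* one of −0.40. The unadjusted p was under 0.05 for 21 members and for 3154 of the 11670 tested genes. DESeq2 called 5 members lower and 0 higher, and 809 and 1112 of the 11670 tested genes. No member was called without naïve replicate 2, where 700 of 11920 genes were called lower and 956 higher. Leaving out other single libraries changed the number of members called lower as well. It was 14, 0 and 1 without replicates 1, 2 and 3 at 5 min of rest, beside 687 of 11970, 422 of 11967 and 440 of 12001 genes. Without naïve replicates 1 and 3 it was 10 and 13, beside 710 of 11939 and 622 of 11959 genes. The median over the members was −0.21, and −0.04 without naïve replicate 2.

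Most members were lower at 10 min of rest. Of the 72 tested members, 47 were called lower than in naïve flies and 1 higher, where 13.9% of tested genes were called lower and 14.5% higher. The log2 fold change was below 0 for 66 members (54.9% of tested genes), among them each of the 62 that are not paralogs. All 10 min libraries lay below all naïve libraries for 49 members (21% of tested genes). The median log2 fold change was −0.36, against −0.05 over all tested genes. Without naïve replicate 2, 76 members passed the filter and 26 were called lower, of which 24 were among the 47, where 10.7% of tested genes were called lower, and the median was −0.23. The 1 member then called higher was the paralog *COX6CL*, with 18, 0 and 9 counts at 10 min of rest, against 0 and 0 in naïve replicates 1 and 3. Without replicate 1 at 10 min of rest, 31 were called lower, beside 1082 of 11959 genes. The male tract markers without *EbpIII* summed to 0.336 to 0.747 normalized CPM in these libraries, against 185 to 208 in naïve flies, and their part in the decrease was not tested.

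Each complex had members that were called lower. In complex I, 25 of 35 tested members were called lower and 1 higher, with a median log2 fold change of −0.41. In complex II, 2 of 5 were called lower (median −0.31), in complex III 5 of 7 (median −0.29), in complex IV 5 of 13 (median −0.36) and in complex V 10 of 12 (median −0.30). Without the paralogs, these counts were 25 of 33, 2 of 4, 5 of 6, 5 of 8 and 10 of 11. Without naïve replicate 2, the complexes had 16, 3, 2, 1 and 4 members called lower, in the order I to V.

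**Figure D2:**
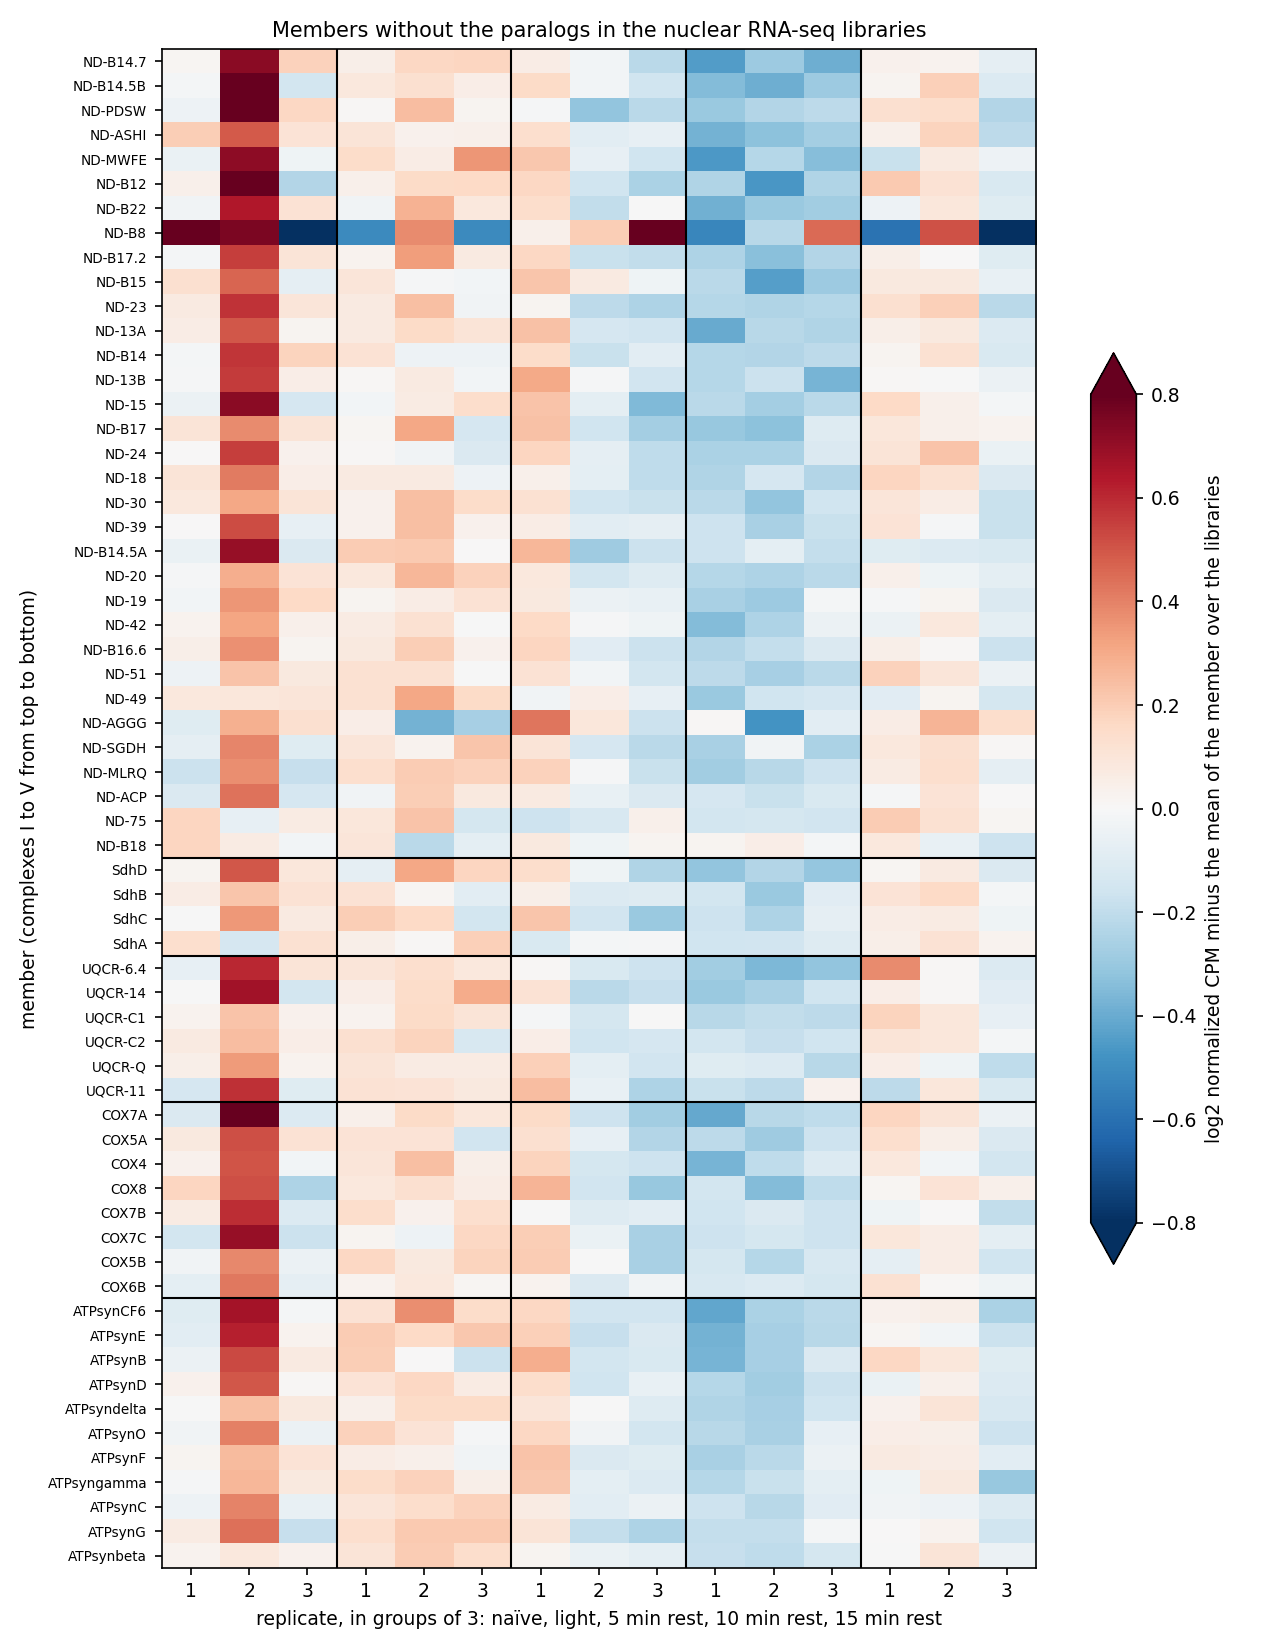
Log2 normalized CPM of the 62 tested members that are not paralogs (rows, complexes I to V from top to bottom) in the 15 libraries (columns, 3 replicates per group), each minus the mean of that member over the libraries, with colours saturating at the ends of the scale. The 3 columns of 10 min of rest are blue for nearly all members, naïve replicate 2 is red for 60 of the 62, and *ND-B8*, at 0.475 to 2.42 normalized CPM, is the row with the widest swings.

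In complex I, the 3 largest decreases were those of *ND-B14.7*, *ND-B14.5B* and *ND-PDSW*, all accessory subunits of its membrane arm. *ND-B14.7* (FBgn0034576) lies on chromosome 2R from 21025078 to 21026086 of dm6, on the forward strand. It had 79.0, 87.9 and 82.1 normalized CPM at 10 min of rest, against 109, 177 and 122 in naïve flies. The highest 10 min library was below the lowest naïve library, and the log2 fold change was −0.71 (standard error 0.12, edgeR adjusted p = 6.29e-05), and −0.48 without naïve replicate 2 (adjusted p = 0.000312). *ND-B14.5B* had 48.0, 46.5 and 49.7 normalized CPM at 10 min of rest, against 60.4, 109 and 55.1 in naïve flies. Naïve replicate 2 was far above the other naïve libraries, and the log2 fold change of −0.64 became −0.27 without naïve replicate 2 and lost its call (adjusted p = 0.078). *ND-PDSW* had 95.9, 100.2 and 102 normalized CPM at 10 min of rest, against 115, 209 and 132 in naïve flies, with a log2 fold change of −0.61, and of −0.31 without naïve replicate 2 (adjusted p = 0.033).

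At the other end of complex I, *ND-B18*, another accessory subunit, had 76.2, 77.9 and 74.5 normalized CPM at 10 min of rest, against 84.8, 78.6 and 73.9 in naïve flies. Its groups overlapped (log2 fold change −0.05, standard error 0.10, adjusted p = 0.72). The paralogs *ND-49L* and *ND-51L1* were higher by value. *ND-49L*, a duplicate of the core subunit gene *ND-49*, had 5.55, 5.38 and 3.92 normalized CPM at 10 min of rest, against 1.92, 2.17 and 2.46 in naïve flies (log2 fold change 1.19, standard error 0.43, edgeR adjusted p = 0.040). It was the only member called higher with all libraries, its groups did not overlap, and the call was lost without naïve replicate 2 (adjusted p = 0.069). *ND-51L1* had at most 26 counts in a library and was not called.

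Complex II, or succinate dehydrogenase, has a flavoprotein (*SdhA*), an iron-sulfur protein (*SdhB*) and a pair of membrane anchors (*SdhC* and *SdhD*). *SdhD* had 99.9, 106 and 101 normalized CPM at 10 min of rest, against 126, 176 and 133 in naïve flies (log2 fold change −0.51, standard error 0.12, adjusted p = 0.0017). *SdhB* had 187, 168 and 194 normalized CPM at 10 min of rest, against 216, 241 and 223 in naïve flies (log2 fold change −0.31, adjusted p = 0.010). Both kept their calls without naïve replicate 2. *SdhC* (log2 fold change −0.31, adjusted p = 0.052) and *SdhA* (−0.18, adjusted p = 0.12) were not called. For *SdhA*, whose level in naïve replicate 2 was 189, below the 228 and 226 of the other naïve libraries, leaving out that library gave −0.27 and a call (adjusted p = 0.017). The paralog *SdhBL* had at most 27 counts in a library and was not called.

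In complex III, *UQCR-6.4*, a small subunit, had 43.6, 41.2 and 42.5 normalized CPM at 10 min of rest, against 50.6, 80.1 and 56.6 in naïve flies (log2 fold change −0.56, standard error 0.14, adjusted p = 0.0026). *UQCR-C1*, a core protein of the matrix side, had 395, 402 and 398 normalized CPM at 10 min of rest, against 469, 539 and 473 in naïve flies (log2 fold change −0.31, standard error 0.09, adjusted p = 0.0074). For both, all 10 min libraries lay below all naïve libraries, and both kept their calls without naïve replicate 2. *UQCR-14* (log2 fold change −0.46) and *UQCR-Q* (−0.29) were called with all libraries and not without naïve replicate 2, and *UQCR-11*, at −0.27, was not called. The exons of *UQCR-14* are overlapped entirely by *CG32576* on the opposite strand, and those of *UQCR-6.4* by *POSH*, also on the opposite strand, over 40.5% of their length, so that without a stated strand setting their reads cannot be told apart from those of the neighbours. *UQCR-6.4L* had at most 15 counts in a library.

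In complex IV, or cytochrome c oxidase, *COX7A* had 143, 163 and 165 normalized CPM at 10 min of rest, against 175, 341 and 176 in naïve flies (log2 fold change −0.56, standard error 0.16, adjusted p = 0.0094). Naïve replicate 2 was far above the other naïve libraries, and without it the log2 fold change was −0.16 (adjusted p = 0.26). *COX5A*, a subunit of the matrix side, was the member of complex IV that was called with and without that library. It had 263, 249 and 271 normalized CPM at 10 min of rest, against 321, 434 and 329 in naïve flies (log2 fold change −0.47, adjusted p = 0.0018, and −0.32 with an adjusted p of 0.014 without naïve replicate 2). The paralogs *COX7AL2* (log2 fold change −0.57, standard error 0.37), *COX6AL* (−0.53, standard error 1.19), *COX4L* (−0.12, standard error 0.96), *COX7CL* (0.06, standard error 0.49) and *COX5BL* (0.09, standard error 0.58) were not called and had wide errors.

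In complex V, *ATPsynbeta*, the catalytic subunit, had the smallest called change of its complex. It had 834, 823 and 859 normalized CPM at 10 min of rest, against 965, 1004 and 969 in naïve flies (log2 fold change −0.22, standard error 0.08, adjusted p = 0.0275, and −0.21 without naïve replicate 2, adjusted p = 0.046). *ATPsynCF6* and *ATPsynB*, of the peripheral stalk, and *ATPsynE*, of the membrane part, had the 3 lowest log2 fold changes, at −0.52, −0.46 and −0.51. *ATPsynE* had 137, 148 and 152 normalized CPM at 10 min of rest, against 168, 275 and 182 in naïve flies, and kept its call without naïve replicate 2 (log2 fold change −0.26, adjusted p = 0.044), whereas *ATPsynCF6* (−0.24) and *ATPsynB* (−0.26) did not. *ATPsynC* had 1396, 1346 and 1472 normalized CPM at 10 min of rest, against 1524, 2063 and 1504 in naïve flies (log2 fold change −0.27, adjusted p = 0.030, and −0.11 without naïve replicate 2, adjusted p = 0.32). *ATPsynG* (−0.26) and the paralog *ATPsynepsilonL* (−0.11) were not called.

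Set against the libraries taken right after the light, the members were again lower at 10 min of rest. Here 22 of 72 were called lower and none higher, where 5.54% of tested genes were called lower and 8.72% higher. The unadjusted p was under 0.05 for 51 members and for 3158 of the 11670 tested genes. DESeq2 called 20 members lower and 0 higher, and 638 and 1239 of the 11670 tested genes. All 10 min libraries lay below all libraries taken right after the light for 57 members (18% of tested genes). The median log2 fold change was −0.30, and leaving out any single library gave −0.33 to −0.27. The count was less stable than the median. It was 44 without naïve replicate 2, where 8.03% of tested genes were called lower. Without replicate 2 of the light group and replicates 1 and 2 at 10 min of rest, it was 8, 5 and 9. Those fits called 347 of 11954, 317 of 11959 and 339 of 11993 genes lower. This comparison shares its 10 min libraries with the one against naïve flies. The male tract markers without *EbpIII* differed here as well, at 0.336 to 0.747 normalized CPM at 10 min of rest, against 64.1 to 83.8 in the light group.

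The 3 smallest p-values in it belonged to *ND-49* and *ND-20*, which hold core positions in the electron path of complex I, and to *ATPsynbeta*. *ND-49* had 222, 244 and 249 normalized CPM at 10 min of rest, against 297, 339 and 304 right after the light (log2 fold change −0.39, standard error 0.08, adjusted p = 0.0014). *ND-20* had 128, 127 and 129 normalized CPM at 10 min of rest, against 159, 181 and 171 right after the light (log2 fold change −0.41, standard error 0.09, adjusted p = 0.0022). *ATPsynbeta* had 834, 823 and 859 normalized CPM at 10 min of rest, against 1015, 1089 and 1043 right after the light, and its log2 fold change at 10 min of rest was −0.32 (standard error 0.08, adjusted p = 0.0038). None of the 3 overlapped between the groups. *ND-49* also had closely matched naïve libraries, at 290, 291 and 292, and its log2 fold change against naïve flies was −0.29 with and without naïve replicate 2.

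**Figure D3:**
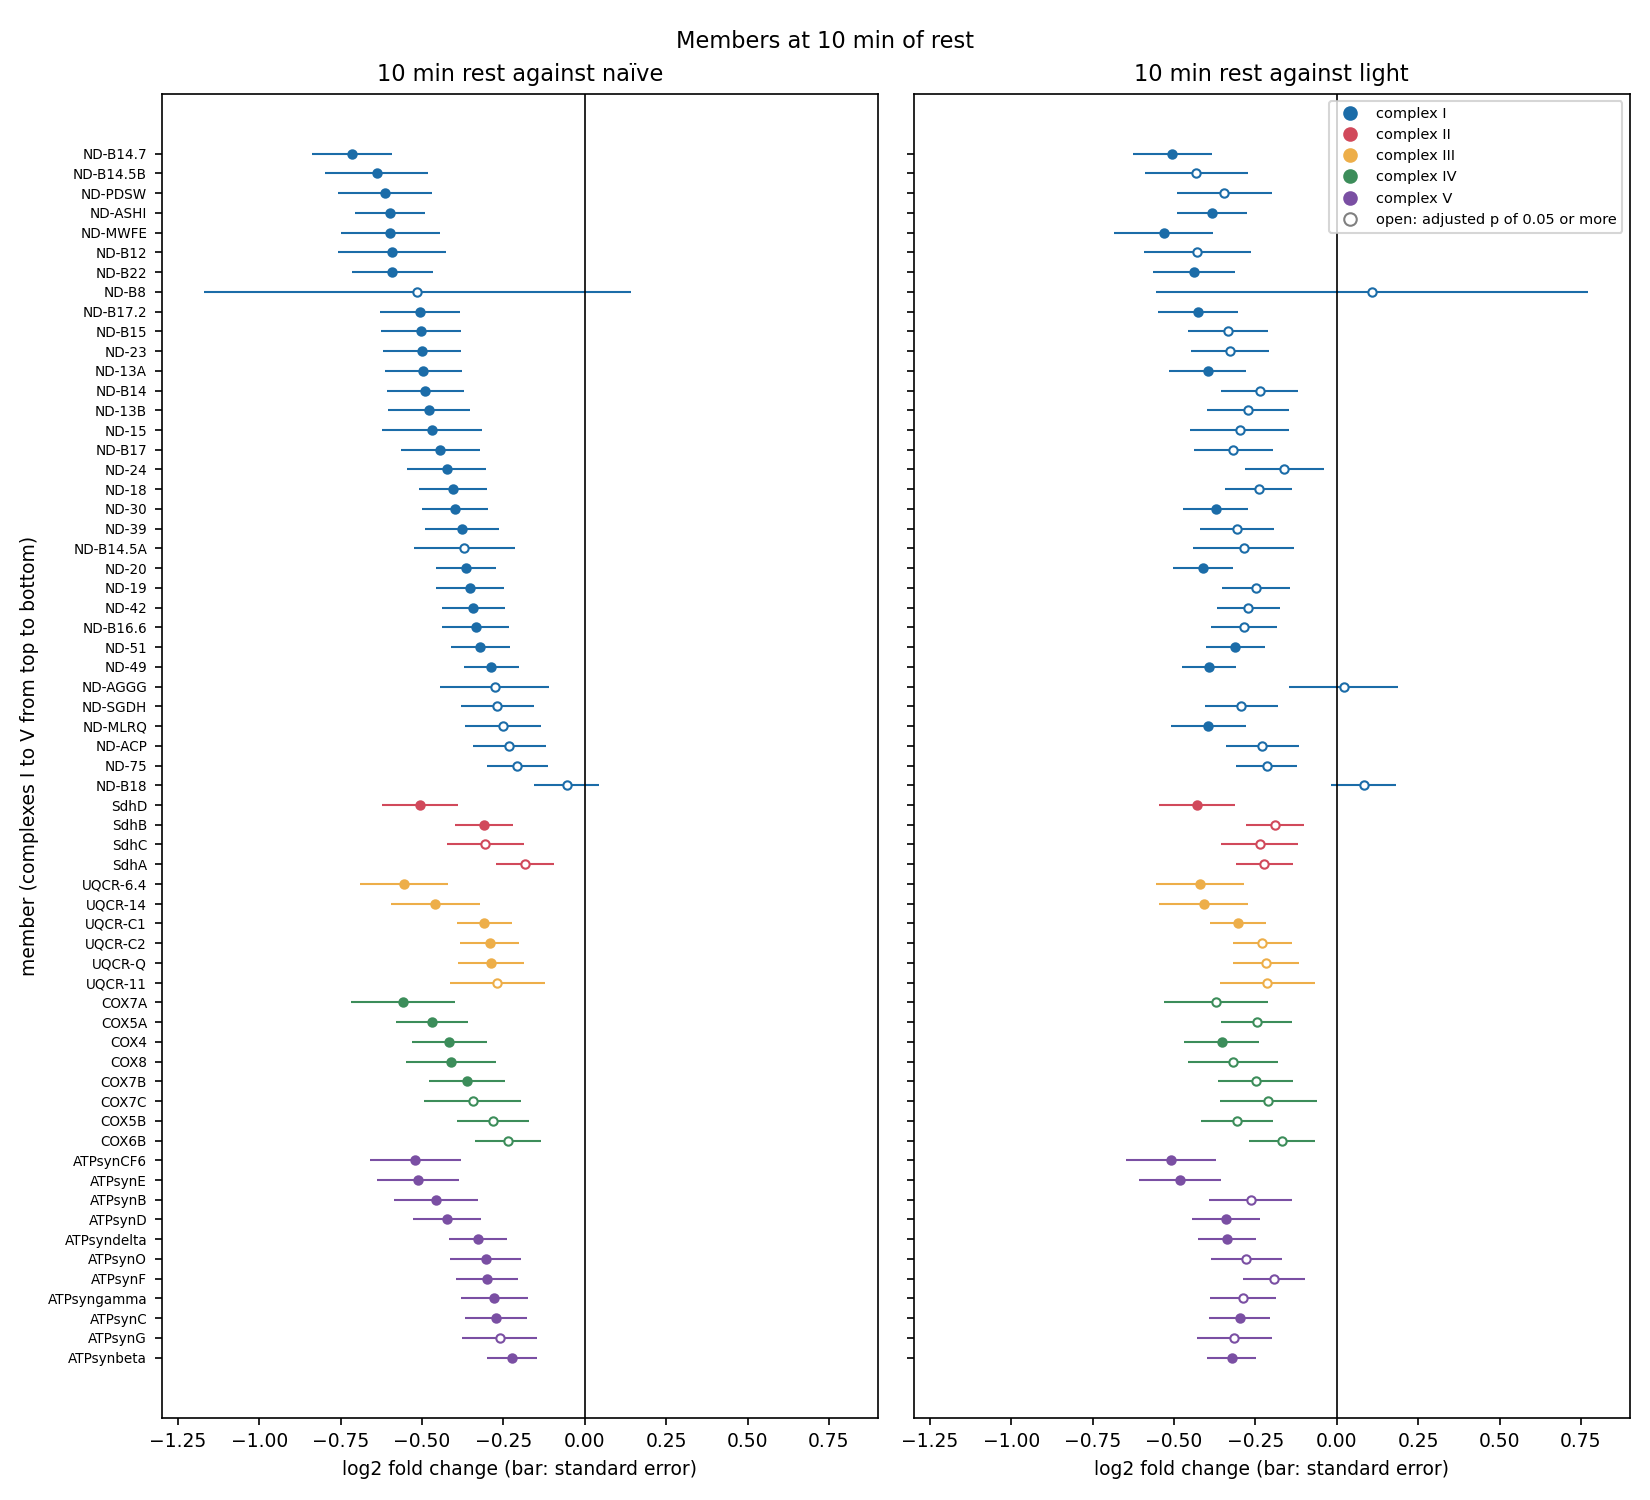
Log2 fold change at 10 min of rest against naïve flies (left) and against flies taken right after the light (right) for the 62 tested members that are not paralogs, coloured by complex, with standard errors as bars and filled points for an edgeR adjusted p under 0.05. All 62 points on the left and 59 on the right are below 0, and both panels share the 10 min libraries.

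After 15 min of rest, no member was called against naïve flies (4.24% of tested genes lower, 5.41% higher). The unadjusted p was under 0.05 for 11 members, and for 2711 of the 11670 tested genes. DESeq2 called 0 members. The median log2 fold change was −0.17, and −0.01 without naïve replicate 2. Without naïve replicates 1 and 3, 5 and 1 members were called lower, beside 489 of 11939 and 388 of 11959 genes. The smallest p-values were those of *ND-B14.7* (log2 fold change −0.34, adjusted p = 0.077), *ND-ASHI*, an accessory subunit of complex I (−0.27, adjusted p = 0.12), and *COX7B* of complex IV (−0.29, adjusted p = 0.12). Compared directly, the members were higher at 15 than at 10 min of rest. Of 72, 63 had a log2 fold change above 0 and 9 below 0, where 46.7% of tested genes were below 0. The median was 0.23, against 0.03 over all tested genes. Short genes rose in general. Among genes with a mean over 5 on the scale of log2 CPM, the median differences were 0.26 for members without paralogs and 0.15 for other genes of up to 700 bp of exons. They were 0.24 and 0.12 at 700 to 1000 bp, and −0.04 for other genes above 3000 bp. With offsets by exon length in the fit, the median of the members was 0.14. Called higher were 6 members, near the share of all tested genes (6.71%), and none were called lower (10.2% of tested genes). All 15 min libraries lay above all 10 min libraries for 41 members (18.4% of tested genes). The unadjusted p was under 0.05 for 31 members and for 3405 of the 11670 tested genes. DESeq2 called 8 members higher and 0 lower, and 837 and 1367 of the 11670 tested genes.

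The 6 members called higher at 15 than at 10 min of rest were *ND-51*, *UQCR-C1*, *UQCR-6.4*, *ND-ASHI*, *ND-B14.7* and *SdhB*. *ND-51*, which binds NADH in complex I, had 381, 358 and 324 normalized CPM at 15 min, against 289, 279 and 288 at 10 min of rest (log2 fold change 0.31, standard error 0.09, edgeR adjusted p = 0.016). *UQCR-C1* had 522, 491 and 440 at 15 min, against 395, 402 and 398 at 10 min of rest (log2 fold change 0.28, adjusted p = 0.021), and *UQCR-6.4* had 68.6, 53.2 and 49.0 at 15 min, against 43.6, 41.2 and 42.5 at 10 min of rest (log2 fold change 0.42, adjusted p = 0.032). Replicate 3 was the lowest 15 min library for each of these 3. How many were called rested on single libraries. Without naïve replicate 2, a library of neither group, 26 were called (9.17% of tested genes). The count was 0, 0, 1, 1 and 2 without replicate 2 at 10 min, replicate 1 at 15 min, replicate 1 at 10 min, replicate 2 at 15 min and replicate 3 at 10 min of rest. In this order, those fits called 465 of 11993, 558 of 11988, 470 of 11959, 502 of 11982 and 549 of 11956 genes higher. Leaving out any single library gave medians of 0.20 to 0.27. At 15 min of rest the photoreceptor markers were also higher than at 10 min, 9 of 9 by the same test, with summed levels of 40126 to 48043 normalized CPM at 15 min, against 26732 to 27648 at 10 min, and 11 of 15 muscle markers were lower, with summed levels of 1075 to 1533 at 15 min, against 1895 to 2076 at 10 min. Of 7 tested fat body markers, 6 were higher, with summed levels of 21786 to 23064 at 15 min, against 15576 to 16137 at 10 min. Of 6 tested male tract markers, 5 were higher, and without *EbpIII* they summed to 31.2 to 46.4 at 15 min, against 0.336 to 0.747 at 10 min. Their part in the change of the members was not tested.

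In the joint test over the 5 groups, 27 of 72 members were called, where 30.1% of tested genes were. The smallest p-values were those of *ND-B14.7* (adjusted p = 0.00070), *ND-ASHI* (adjusted p = 0.0017) and *ND-49* (adjusted p = 0.0052). The count was 11, 13 and 17 without replicates 1, 2 and 3 at 10 min of rest and 41 without replicate 1 at 5 min of rest. In the same order, these fits called 2831 of 11959, 2863 of 11993, 3020 of 11956 and 3640 of 11970 genes.

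The surplus in naïve replicate 2 went with exon length. Over 60 members that are not paralogs, with a mean over 5 on the scale of log2 CPM, the log2 difference of this library from the other naïve libraries was above 0 for 57. Its median was 0.55 for the 11 members with up to 700 bp of exons, 0.50 for the 28 with 700 to 1000 bp, 0.33 for the 9 with 1000 to 1500 bp and 0.19 for the 11 with 1500 to 3000 bp. Across these members, which share libraries and are not independent replicates, it was related to log2 exon length with r = −0.61. Other genes had the same gradient, with medians of 0.51 for 138 genes of up to 700 bp and −0.14 for 2254 genes above 3000 bp, and replicate 1 at 5 min of rest differed from its group in the same way (0.32 and −0.11). The decrease of the members at 10 min of rest, taken against naïve replicates 1 and 3 alone, had no such gradient. It had medians of −0.22, −0.26, −0.22 and −0.24 in the same 4 length classes (r = −0.02), was below 0 for 59 of the 60 members, and stood beside −0.03 for other genes of up to 700 bp and −0.03 for those of 700 to 1000 bp. Against the libraries taken right after the light, the decrease was −0.34 and −0.31 for members in these 2 classes and −0.16 and −0.13 for other genes. With offsets by exon length fitted in every library, an alternative added after these values were seen, 33 members were called lower than in naïve flies at 10 min of rest (12.5% of tested genes), with a median of −0.21. The cause of the gradient was not tested.

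**Figure D4:**
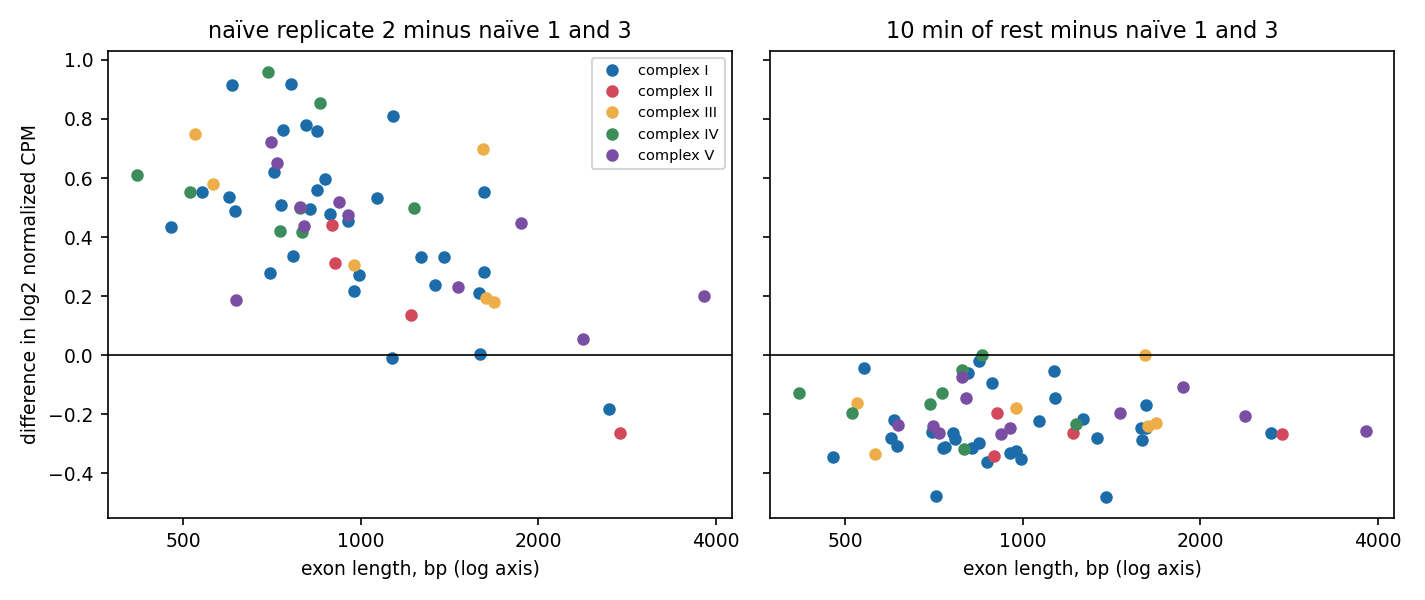
Difference in log2 normalized CPM (vertical axis) against exon length on a log axis (horizontal) for 60 members that are not paralogs, coloured by complex. Naïve replicate 2 exceeded the mean of the other naïve libraries most in short genes (left, above 0 for 57), whereas the 10 min of rest libraries were below these same naïve libraries at all lengths (right, below 0 for 59).

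Other genes of the pathway, which the name rule does not reach, were given as a list. Of 10 such genes, 9 had a log2 fold change below 0 at 10 min of rest against naïve flies (54.9% of tested genes), with a median of −0.37. Called lower were 5 (13.9% of tested genes) and higher 0 (14.5%). Against the light group, 2 were called lower (5.54% of tested genes), and all 10 had values below 0 (54.2%). Against naïve flies without replicate 2, *levy*, *RFeSP* and *Cyt-c-p* were the 3 called lower (10.7% of tested genes), and the median was −0.18. The following values are those with all libraries, first against naïve flies and then against the light group. *levy*, a subunit of complex IV, had log2 fold changes of −0.47 and −0.50 (edgeR adjusted p = 0.0021 and 0.0022). *RFeSP*, the iron-sulfur protein of complex III, had −0.45 and −0.28 (adjusted p = 0.0018 and 0.078). *Cyt-c-p*, cytochrome c, had −0.34 and −0.11 (adjusted p = 0.0087 and 0.51). Of 14 genes for the assembly of the complexes and the upkeep of their genome, 4 were called lower than in naïve flies (13.9% of tested genes). Among them were *Scox* (log2 fold change −0.64) and *Cox10* (−0.49). Called lower than right after the light were 3 (5.54% of tested genes). Against naïve flies without replicate 2, 4 were called lower (10.7% of tested genes) and the median was −0.31.

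Binding sites at the members were counted from the authors' lists for CBP, an acetyltransferase of histones, Rpd3, a histone deacetylase, and CoRest-C, an isoform of the corepressor CoRest. A gene had a site when a listed site shared at least 1 bp with its body or with 1000 bp upstream. The lists have no replicate values, so nothing was tested. Rpd3 sites were present at 42 of the 72 tested members (58.3%), against 34.2% of the 11459 tested genes with a position. CoRest-C sites were present at 14 (19.4%, against 13.2%) and CBP sites at 24 (33.3%, against 43.3%). None of the 15 untested members had a site of any protein. Complex V had the highest shares, with Rpd3 sites at 9 and CBP sites at 8 of its 12 tested members, and complex I had Rpd3 sites at 18 and CBP sites at 8 of 35. Of the 46 distinct Rpd3 sites at members, 33 contained an annotated start site of the member. Also of the 46, 24 contained the start site of another gene, with or without that of the member, so that sites cannot always be assigned to 1 gene.

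**Figure D5:**
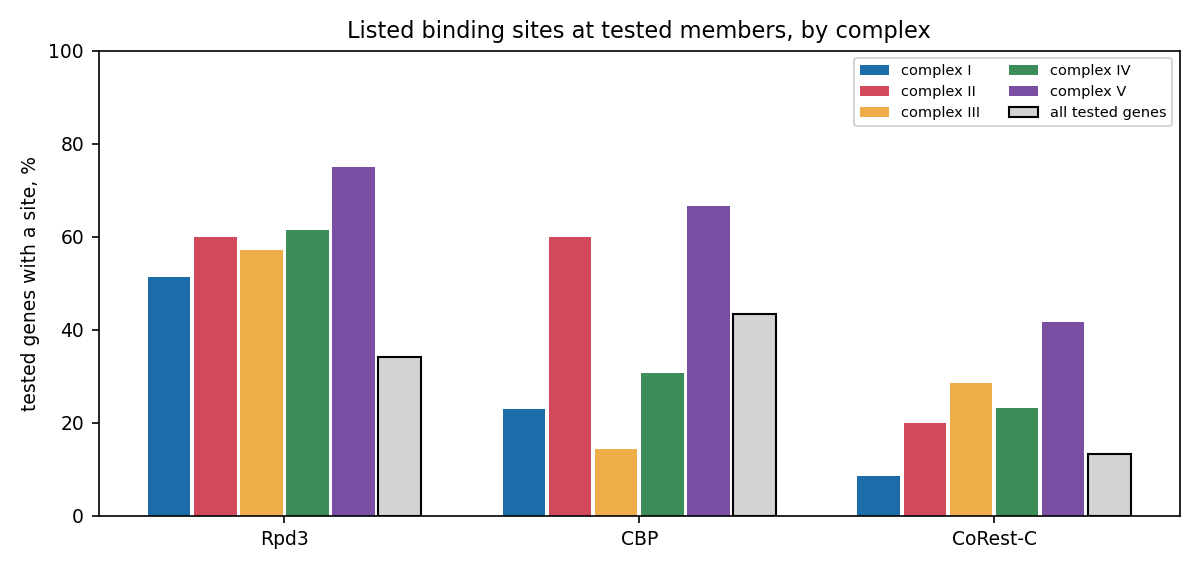
Share of the tested members of each complex with a listed Rpd3, CBP or CoRest-C site (bars from 0, colours by complex), beside the share of all tested genes (grey). The Rpd3 bar of each complex is above the grey bar of 34.2%, and the CBP bars of complexes I, III and IV are below the grey bar of 43.3%.

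Sites of all 3 proteins were listed at 11 members (15.3% of those tested, against 8.71% of tested genes): *ATPsynC*, *ATPsynE*, *ATPsynF*, *ATPsynG*, *ATPsyngamma*, *COX5A*, *COX6B*, *COX7AL2*, *ND-15*, *SdhC* and *UQCR-Q*. At 10 min of rest, 7 of them were called lower than in naïve flies (13.9% of tested genes), of which *COX5A* and *ATPsynE* were the 2 called without naïve replicate 2. With all libraries, *SdhC*, *COX6B* and *ATPsynG* were near the threshold (adjusted p = 0.052, 0.081 and 0.091), and *COX7AL2* was not called. The highest fold enrichment at a member was that of CBP in *ND-15* (25.9), at a site from 128206 to 129673 on chromosome 2L, which lies within the span of *ND-15* but 14599 bp from its nearest start site, measured from the summit. For Rpd3 (7.66) and CoRest-C (5.79) the highest values were both at *COX7AL2*. The median fold enrichment of the sites at members was 4.67 for CBP, 4.55 for Rpd3 and 4.64 for CoRest-C, against 7.17, 4.10 and 4.17 in the whole lists.

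Members both with and without a site were called lower at 10 min of rest. With an Rpd3 site, 30 of 42 were called lower than in naïve flies (median log2 fold change −0.36), and without one 17 of 30 (median −0.35). Among all tested genes, 13.1% of those with an Rpd3 site and 14.3% of those without one were called lower. With naïve replicate 2 left out, 17 of 42 and 9 of 30 members were called lower (medians −0.24 and −0.22), where 10.7% of all tested genes were. With a CBP site, 17 of 24 were called lower and 0 higher, and without one 30 of 48 were called lower. The counts of lower members were 10 of 24 and 16 of 48 without naïve replicate 2, against the same 10.7%. Against the light group, 13 of 42 members with an Rpd3 site and 9 of 30 without one were called lower. In that comparison, 4.95% of all tested genes with an Rpd3 site and 5.92% of those without one were called lower. Among all tested genes with a CBP site, 9.94% were called lower and 23.1% higher than in naïve flies. For all tested genes without a CBP site, these shares were 16.96% and 7.76%. These sites come from flies illuminated for 5 min and not from flies after rest.

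The start regions of 3 members are printed because listed sites covered them: that of *COX5A* (chr3R:11819109-11819408 of dm6, forward strand) lay entirely within a site of each protein, that of *ATPsynC* (chr3R:31219581-31219880, reverse strand) had 285 of its 300 bases in an Rpd3 site, 269 in a CoRest-C site and 132 in a CBP site, and that of *ND-PDSW* (chr2L:3465907-3466206, forward strand) had 300 bases in an Rpd3 site and 213 in a CoRest-C site. Each run holds 250 bases before the annotated start in lower case and the first 50 transcribed bases in capitals, read 5′ to 3′ from the RefSeq genome of the same build.
COX5A: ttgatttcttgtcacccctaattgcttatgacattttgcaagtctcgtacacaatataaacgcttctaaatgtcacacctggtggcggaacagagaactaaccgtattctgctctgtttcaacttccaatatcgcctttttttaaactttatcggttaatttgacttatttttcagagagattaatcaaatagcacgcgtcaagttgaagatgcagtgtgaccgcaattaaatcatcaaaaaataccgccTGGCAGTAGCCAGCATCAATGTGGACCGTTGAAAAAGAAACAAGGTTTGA
ATPsynC: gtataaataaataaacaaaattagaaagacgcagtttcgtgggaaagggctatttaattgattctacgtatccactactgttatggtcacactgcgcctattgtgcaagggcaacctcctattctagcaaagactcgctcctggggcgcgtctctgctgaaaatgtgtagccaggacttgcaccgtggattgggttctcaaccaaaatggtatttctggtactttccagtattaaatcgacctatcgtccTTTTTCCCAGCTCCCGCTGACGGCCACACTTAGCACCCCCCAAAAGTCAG
ND-PDSW: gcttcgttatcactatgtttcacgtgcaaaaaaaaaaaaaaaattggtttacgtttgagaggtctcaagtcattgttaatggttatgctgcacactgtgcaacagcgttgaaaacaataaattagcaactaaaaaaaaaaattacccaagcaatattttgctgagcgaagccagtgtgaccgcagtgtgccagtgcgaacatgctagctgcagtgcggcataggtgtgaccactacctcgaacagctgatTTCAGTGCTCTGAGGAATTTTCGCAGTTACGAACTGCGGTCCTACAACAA
The GC content of these runs was 38.3%, 46.0% and 42.0%, against medians of 34.3% over the start regions of tested members and 38.3% over those of all tested genes.

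In the same 300 bases, the DRE, an element known in *Drosophila* as the target of the factor DREF, was searched for as TATCGATA, which reads the same on both strands. It was found at 8 of 72 tested members (11.1%), against 10.5% of tested genes. The letters TATAAA on either strand were found at 58.3% of tested members and 43.5% of tested genes, and CACGTG at 5.56% and 4.11% (matches could overlap each other). The windows of 5 members with a DRE are printed to compare its surroundings, with the element in capitals: *COX7A* (chr3R:8341008-8341075, reverse strand), *UQCR-14* (chrX:16286196-16286263, forward strand), *ND-B14.5A* (chrX:2172425-2172492, forward strand), *COX4* (chr2L:19958581-19958648, forward strand) and *ND-15* (chr2L:114573-114640, forward strand).
COX7A: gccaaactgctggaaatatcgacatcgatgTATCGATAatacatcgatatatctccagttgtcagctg
UQCR-14: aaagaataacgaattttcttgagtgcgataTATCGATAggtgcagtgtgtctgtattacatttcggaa
ND-B14.5A: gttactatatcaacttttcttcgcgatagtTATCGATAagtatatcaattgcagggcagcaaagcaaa
COX4: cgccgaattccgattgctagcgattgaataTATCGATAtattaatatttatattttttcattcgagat
ND-15: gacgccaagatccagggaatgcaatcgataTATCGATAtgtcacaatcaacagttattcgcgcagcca
The centre of the element lay 2 bp after the annotated start in *COX7A*, and 58, 67, 98 and 119 bp before it in *UQCR-14*, *ND-B14.5A*, *COX4* and *ND-15*. At 10 min of rest against naïve flies, the median log2 fold change was −0.46 for the 8 tested members with a DRE and −0.33 for the 64 without one. Without naïve replicate 2 the order turned, with medians of −0.20 and −0.23, and the difference was not tested. Of the 5 printed, *COX7A*, *UQCR-14*, *COX4* and *ND-15* were called lower with all libraries and none of these 4 without naïve replicate 2.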

How the data were processed

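RNA was prepared with oligo-dT from immunoprecipitated, formaldehyde-crosslinked MB nuclei and fragmented, so that reads lay mainly towards the 3′ ends. The deposited values are raw counts per gene, for which the authors trimmed adaptors, aligned read pairs by STAR (dm6), discarded alignments of poor mapping quality and had HTSeq count exons, while the strand setting is not given in the sources used here. For binding sites, the authors ran MACS in each sample and kept sites that overlapped in at least 2 of 3 illuminated replicates. The deposited site lists give a −log10 p-value and a fold enrichment per site, as the authors' caller wrote them, and repeated entries (1094 in the Rpd3 list, 234 in the CoRest-C list) were dropped. A table of the authors' own fold changes and q-values was not used.

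Members and lists were chosen with earlier results of these data known. Current names were matched by gene identifier to 17253 of 17559 rows, and the 306 rows without one held 3.23% of counts. Counts were fitted in edgeR 4.0.16 (R 4.3.3) with TMM scaling, the filterByExpr filter and the quasi-likelihood test over all 5 groups in 1 model, with Benjamini-Hochberg adjustment over 11670 genes, and in DESeq2 1.42.0 as an alternative. The code was tested on simulated data. Libraries held 10392334 to 18809246 counts, and the biological coefficient of variation was 13.4%. Replicates differed by more than sampling noise, and none was merged. The genes named were, in each complex, the 3 highest and the 3 lowest log2 fold changes at 10 min of rest against naïve flies, the 3 smallest p-values in every other test, members that failed the filter, members with sites of all 3 proteins and the member with the highest enrichment for each protein. *COX4*, *ND-B14.5A*, *ND-B8*, *ND-MLRQ*, named genes of other lists and the printed sequences were chosen after their values were seen. Alternatives covered scaling, filters, the libraries fitted, a replicate block, a stricter threshold and each library left out. Offsets by exon length, the comparison of 10 min of rest with the light group alternative member sets, and the lists and site groups without naïve replicate 2 were added after seeing the data.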

Additional observations from a re-analysis of the deposited data

How the results depend on the processing

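Leaving out single libraries, the number of members called lower at 10 min of rest against naïve flies ranged from 26 to 55 (47 with all libraries) and the number called higher from 0 to 2. Over all 11920 to 12001 genes then fitted, these ranges were 1082 to 1711 and 1353 to 1725. The other counts of lower members ranged from 0 to 1 right after the light, 0 to 14 after 5 min and 0 to 5 after 15 min of rest against naïve flies, 0 to 1 at 15 against 10 min, and 5 to 44 at 10 min against the light group. Over all fitted genes, in this order, they ranged from 221 to 434, 422 to 753, 344 to 524, 895 to 1448 and 317 to 957. The counts of higher members ranged from 0 to 1 right after the light and from 0 to 26 at 15 against 10 min, and the joint test called 11 to 41. Over all fitted genes these ranges were 357 to 607, 465 to 1093 and 2831 to 3959. Median log2 fold changes ranged from −0.15 to 0.07 right after the light, −0.31 to −0.04 after 5 min, −0.42 to −0.23 after 10 min and −0.23 to −0.01 after 15 min of rest, of which 0.074, −0.041 and −0.014 right after the light and after 5 and 15 min were without naïve replicate 2.

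With library size alone, which moved the median of all genes at 10 min of rest to −0.17, 24 members were called lower after 5 min, 8 after 15 min and 46 at 10 min against the light group, 10 were called higher at 15 against 10 min, 0 were called higher at 10 min against naïve flies, and 56 were called jointly. Of all 11670 tested genes, this setting called 1296, 941 and 1193 lower in the same order, 958 and 1236 higher, and 4215 jointly. Upper quartile scaling gave 6 lower after 5 min, 0 higher at 10 min, 13 higher at 15 against 10 min and 42 jointly. Over all 11670 tested genes these counts were 939, 1459, 1029 and 3731. DESeq2 called 5 lower after 5 min, and 809 of all 11670 tested genes. Without the filter, 12 were lower after 5 min, 2 after 15 min and 36 at 10 min against the light group, 13 were higher at 15 against 10 min, and 45 were called jointly. Over all 15634 genes then fitted, these counts were 811, 564, 697, 810 and 4112. With only the libraries compared, 0 members were lower after 5 min and 49 at 10 min against the light group, and 26 were higher at 15 against 10 min. Over all genes these counts were 380 of 11102, 1031 of 11039 and 943 of 10957. At an adjusted p under 0.01, 1 member was lower after 5 min, 31 at 10 min and 5 at 10 min against the light group, 0 were higher at 10 min, 0 at 15 against 10 min, and 6 were called jointly. Without the 24 paralogs, 0 were higher at 10 min. Of the 8 members named so in the count table, 0 were called lower after 5 min, 6 at 10 min and 3 at 10 min against the light group, 0 higher at 10 min, 1 higher at 15 against 10 min, and 3 jointly. Offsets by exon length gave 1 higher right after the light (682 of 11446 genes) and a median of −0.21 at 10 min. CBP sites above the median score of their list were at 6 members, against 24 with all sites. These were 8.33% of tested members, against 24.8% of tested genes, where all sites gave 33.3% and 43.3%. The causes of these shifts were not tested.

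Replicate numbers did not pair the libraries, since in no 2 groups were all 3 correlations over 0.1. With a replicate block, 47 members were called lower and 1 higher at 10 min of rest, and 1546 and 1667 of all 11670 tested genes. Of the named genes under the alternatives, 906 values kept direction and call, 54 lost and 22 gained a call, 21 turned in sign without a call, and none reversed a call. Paralogs with few counts set the limit of depth.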

Other observations

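Lists of other genes of energy metabolism had shares of called genes that can be read against all tested genes, of which 13.9% were called lower and 14.5% higher at 10 min of rest than in naïve flies, and 5.54% lower and 8.72% higher than in the light group. Of 16 genes of the tricarboxylic acid cycle and pyruvate dehydrogenase, 5 were called lower and 0 higher than in naïve flies by edgeR's quasi-likelihood test, with a median log2 fold change of −0.09, and 5 were called lower than right after the light (median −0.20). Without naïve replicate 2, 4 were called lower than in naïve flies. *Pdhb*, a subunit of pyruvate dehydrogenase, was lower with all libraries against naïve flies and against the light group (log2 fold changes −0.27 and −0.34, edgeR adjusted p = 0.025 and 0.0096). It was not called against naïve flies without naïve replicate 2 (adjusted p = 0.095). Of 12 glycolysis genes, 3 were called higher and 2 lower in each of these comparisons, and against naïve flies also without naïve replicate 2. *Hex-A*, hexokinase, *Pgi*, which makes fructose-6-phosphate, and *Ald1*, aldolase, were higher by 0.29, 0.38 and 0.57 on the log2 scale than in naïve flies, and *PyK*, pyruvate kinase, and *Gapdh2*, glyceraldehyde-3-phosphate dehydrogenase, had log2 fold changes of −0.25 and −0.24.

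Among 9 tested regulators of mitochondrial genes, 1 was called higher and 1 lower at 10 min of rest than in naïve flies, with and without naïve replicate 2, near the share of all tested genes. *foxo*, a forkhead transcription factor downstream of insulin signalling, had 328, 328 and 293 normalized CPM at 10 min of rest, against 149, 113 and 156.3 in naïve flies (log2 fold change 1.18, standard error 0.10, adjusted p = 1.84e-10). Its libraries lay at 203 to 209 right after the light, 244 to 256 after 5 min and 151 to 159 after 15 min of rest. *PolrMT*, the RNA polymerase of mitochondria, had 21.9, 16.6 and 15.6 normalized CPM at 10 min of rest, against 31.7, 25.2 and 26.9 in naïve flies (log2 fold change −0.63, adjusted p = 0.0021). Whether either is related to the members was not tested.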
